A study of Mus musculus with 15 samples.

Results

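This account concerns both mesenchymal populations sorted from the thymus of C57BL/6 mice aged 2 weeks, which were set against each other gene by gene. Both were sorted as positive for PDGFRβ, the receptor of PDGF-B that mesenchymal and perivascular cells carry. The first, called PDPN+BP3- here, carried podoplanin (PDPN) and lacked BP3, the product of Bst1. The second, called PDPN- here, lacked podoplanin and carried Ly51, the product of Enpep. Each population was measured on 3 arrays, labelled as biological replicates from 3 individual experiments, so the comparison rests on 6 of the 15 arrays of the series. The mice carried no labelled mutation or treatment. Each thymus sort used 3 mice, so an array reports a pool of animals. The other 9 arrays came from pooled lymph nodes of mice of the same strain and age, with sorts from 10 to 11 mice, and hold a PDPN+BP3-, a PDPN- and a PDPN+BP3+ population with 3 arrays each. They entered the fit only to share its estimate of spread and are set beside the thymus where stated.

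Thymic mesenchyme forms the capsule and the septa of the organ and sheathes its blood vessels. Fibroblasts of the capsule, the septa and the vessel adventitia lay down collagen and elastic fibres and release growth factors such as FGF7, FGF10 and insulin-like growth factors, on which thymic epithelial cells depend. Pericytes and vascular smooth muscle cells lie against the endothelium, contract or relax in response to vasoactive peptides and nitric oxide, and depend on PDGF-B and Notch signals from endothelial cells. Podoplanin is a mucin-type membrane glycoprotein that fibroblasts of lymphoid organs carry and pericytes generally lack.

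Values are RMA signals on a log2 scale, so a difference of 1 is a doubling of signal. Every difference below is PDPN+BP3- minus PDPN-, given ± its standard error from limma (n = 3 arrays in each population), and a gene passed when its Benjamini-Hochberg adjusted p over 18718 genes was below 0.05. When the 6 arrays of a gene are listed, replicates 1, 2 and 3 are given in that order. Values of different genes come from different probes and are not compared with each other. Where a population lay below the median of the table, 3.8, its signal need not stand above background, and the difference is one of signal rather than a ratio of RNA. Some genes passed with all 6 arrays below 3.8, such as Hoxb6, Hoxc6, Adamts6, Aldh1a2, Frzb, Tshr and Col25a1. For these the signal of neither population need stand above background. In sorted pools, fewer cells of a type and less RNA per cell cannot be told apart.

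The sorted antigens Pdpn and Enpep and the markers of the populations followed the labels. Pdpn stood at 9.01, 9.14 and 9.19 on the PDPN+BP3- arrays and 2.77, 3.25 and 3.02 on the PDPN- arrays, with no overlap (6.10 ± 0.13), and Enpep, the membrane aminopeptidase recognised as Ly51, at 4.06, 4.77 and 4.63 on the PDPN+BP3- arrays and 8.15, 8.03 and 8.04 on the PDPN- arrays (-3.59 ± 0.18). Since the cells were selected on these antigens, both values are a check of the labels and not a result. Pdgfrb was strong in both populations and lower in PDPN+BP3- cells (-1.67 ± 0.11), and Bst1 stood at 2.08, 2.23 and 2.32 on the PDPN+BP3- arrays and 2.09, 2.06 and 2.38 on the PDPN- arrays. The fibroblast markers Pdgfra and Pi16 and the perivascular markers Fhl5 and Myh11 separated the populations, the first pair higher and the second pair lower in PDPN+BP3- cells. Pdgfra, the receptor of PDGF-A that marks fibroblasts, was at 9.09, 9.39 and 9.52 on the PDPN+BP3- arrays and 2.97, 2.70 and 3.02 on the PDPN- arrays. Pi16, a secreted peptidase inhibitor of adventitial fibroblasts, was at 8.88, 9.24 and 9.02 on the PDPN+BP3- arrays and 2.35, 2.32 and 2.55 on the PDPN- arrays. Fhl5, a LIM-domain coactivator of smooth muscle, was at 2.43, 2.08 and 2.22 on the PDPN+BP3- arrays and 8.99, 8.99 and 8.72 on the PDPN- arrays, and Myh11, the myosin heavy chain of smooth muscle, at 4.66, 4.85 and 4.50 on the PDPN+BP3- arrays and 10.02, 9.70 and 9.88 on the PDPN- arrays. In none of these 4 genes did the arrays of the populations overlap. The 4 markers were given with the comparison and are among its 25 largest rises or falls. Their separation is therefore a description and not independent support.

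Of the 18718 genes 5337, or 28.5%, passed. In PDPN+BP3- cells 1922 (10.3%) of them had the higher signal and 3415 (18.2%) the lower. PDPN+BP3- replicate 1 had compressed values. Its array median was 3.58 against 3.77 to 3.885 on the other 14 arrays, and the median of its genes above the middle of the table was 5.58 against 6.01 to 6.17. Without it 4463 genes (23.8%) passed, 2120 (11.3%) higher and 2343 (12.5%) lower, and 4129 (22.1%) passed with the same sign with and without it. The arrays of the populations did not overlap for 7171 genes (38.3%). All 718 genes (3.84%) that passed with a difference of at least 2 in size, 421 (2.25%) higher and 297 (1.59%) lower, also passed without that array. The median difference of all genes was -0.05, and the counts and medians of the gene groups below are to be read against it and against the shares above. The groups and their members were chosen with earlier results of these data known, so their counts are descriptions and not tests. Across genes, which are not independent replicates, arrays correlated at 0.987 to 0.992 within PDPN+BP3- cells, at 0.994 within PDPN- cells and at 0.919 to 0.930 between the populations. The plot of the difference with and without replicate 1 shows where that array matters.

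**Figure D1:**
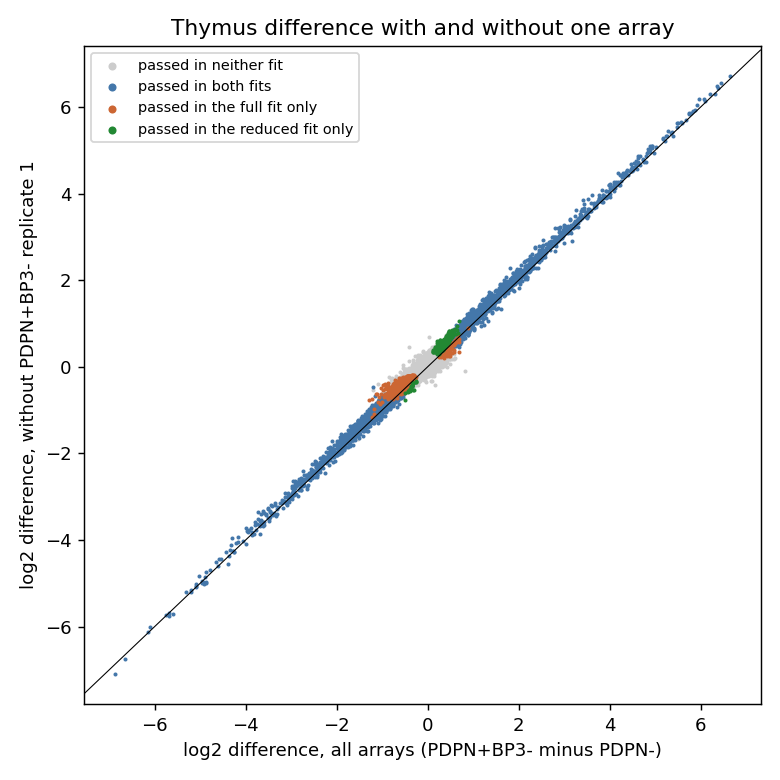
Log2 difference (PDPN+BP3- minus PDPN-) of every gene tested, with all arrays on the x axis and without PDPN+BP3- replicate 1 on the y axis; each point is a gene, coloured by whether it passed in both fits, in the full fit only, in the reduced fit only or in neither. Large differences lie on the diagonal in both fits, and most genes that passed in the full fit only have small negative differences that lie nearer 0 without that array.

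The listed genes of pericytes were all lower in PDPN+BP3- cells, and most listed genes of the contractile apparatus were lower as well. All 18 measured pericyte genes passed as lower, with a median of -3.62. The regulators of G protein signalling Rgs4 (-6.09 ± 0.23) and Rgs5 (-4.65 ± 0.12), which shorten signals of vasoactive receptors, were among the largest, with Rgs5 at 5.94, 6.45 and 6.27 on the PDPN+BP3- arrays and 10.87, 10.91 and 10.83 on the PDPN- arrays. The potassium channel subunit Kcnj8 (-3.54 ± 0.15), the adhesion molecule Mcam (-3.69 ± 0.18), the proteoglycan Cspg4, known as NG2 (-3.15 ± 0.17), and vitronectin, Vtn (-3.11 ± 0.13), were further members. Tbx18, a T-box factor of mural cells, had the smallest difference of the group (-0.69 ± 0.16). Not every gene of the group was weak in PDPN+BP3- cells. Abcc9, the sulfonylurea receptor that pairs with Kcnj8, stood at 8.32, 8.68 and 8.68 on the PDPN+BP3- arrays and 10.85, 10.76 and 10.79 on the PDPN- arrays. The source of its signal in PDPN+BP3- cells was not tested.

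Of 24 genes of the contractile apparatus 20 were lower and 1 higher (median -1.89). Acta2, smooth muscle actin, was at 7.88, 7.91 and 7.75 on the PDPN+BP3- arrays and 10.69, 10.64 and 10.70 on the PDPN- arrays (-2.83 ± 0.12). It was strong in both populations, and the PDPN+BP3- arrays lay below the PDPN- arrays without overlap. The actin-binding transgelin Tagln (-2.73 ± 0.14), the light chain Myl9 (-1.85 ± 0.12), the tropomyosins Tpm1 (-2.0 ± 0.17) and Tpm2 (-2.12 ± 0.18) and caldesmon, Cald1 (-1.32 ± 0.20), differed by less than Myh11 (-5.20 ± 0.16), the calcium store protein Casq2 (-5.60 ± 0.17) and the integrin Itga7 (-5.09 ± 0.15). The order of these differences was described, not tested. Myocd, the coactivator that switches on smooth muscle genes with SRF, was lower too (-3.48 ± 0.13) and stood at 2.54, 2.32 and 2.33 on the PDPN+BP3- arrays and 5.86, 5.87 and 5.89 on the PDPN- arrays. The only higher member was smoothelin, Smtn (0.37 ± 0.13), which did not pass under 7 of 14 alternatives, among them the fits without PDPN+BP3- replicate 2 or 3. Desmin, Des (-0.82 ± 0.23), did not pass without PDPN+BP3- replicate 3 or PDPN- replicate 1.

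SRF binds the CArG box, a stretch of A and T flanked by CC and GG, in the promoters of many contractile genes. The RefSeq promoter windows of build GRCm38.p6, 250 bases before to 50 after a start site, were searched on both strands, the box being its own reverse complement in form. Of the 19 contractile genes with a window 2 held it, or 10.5%, against 1.65% of 14694 tested genes with a window, 1.43% of the genes higher and 2.2% of the genes lower in PDPN+BP3- cells. The window of Myl9 is shown because its gene was lower and it holds such a box, in capitals, starting 161 bases before the start site, at chr2:156775214-156775513 on the plus strand. A match is a description of these letters and not evidence of binding.
Myl9: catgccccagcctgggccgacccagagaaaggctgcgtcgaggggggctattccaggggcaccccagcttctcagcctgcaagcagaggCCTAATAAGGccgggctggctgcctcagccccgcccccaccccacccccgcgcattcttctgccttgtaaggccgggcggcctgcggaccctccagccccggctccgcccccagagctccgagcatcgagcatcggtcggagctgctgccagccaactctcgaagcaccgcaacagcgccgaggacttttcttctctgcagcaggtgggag

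Most ion channels and gap junction genes of vascular muscle were also lower in PDPN+BP3- cells. Of 26 genes 19 were lower and 4 higher (median -2.07). The receptor-operated cation channel Trpc6 (-5.30 ± 0.14), the calcium-activated chloride channel Ano1 (-5.02 ± 0.18), the L-type calcium channel Cacna1c (-1.93 ± 0.19), the T-type channel Cacna1h (-2.89 ± 0.27) and the background potassium channel Kcnk3 (-2.79 ± 0.19) were lower. The connexins divided. Gja1, connexin 43, was at 8.01, 7.97 and 8.54 on the PDPN+BP3- arrays and 2.92, 2.81 and 3.26 on the PDPN- arrays, and Gja4, connexin 37, at 6.29, 6.14 and 6.34 on the PDPN+BP3- arrays and 9.76, 9.79 and 9.59 on the PDPN- arrays, so neither gene's arrays overlapped and the directions were opposite (5.18 ± 0.22 and -3.46 ± 0.11). Gja5 (-2.74 ± 0.20) and Gjc1 (-2.20 ± 0.12), the connexins 40 and 45 of vascular muscle, went with Gja4. The other higher genes were the T-type channel Cacna1g (2.03 ± 0.17), the mechanosensitive channel Piezo1 (0.93 ± 0.22) and Trpv4 (0.82 ± 0.17).

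Receptors for vasoactive signals passed in both directions: of 25 measured, 7 were higher and 8 lower (median 0.0), and 5 were lower without PDPN- replicate 1. The angiotensin receptors were opposed. Agtr1a, which mediates constriction, was at 6.60, 6.95 and 7.10 on the PDPN+BP3- arrays and 10.06, 9.93 and 9.85 on the PDPN- arrays (-3.06 ± 0.14), whereas Agtr2, the other angiotensin receptor, was at 5.86, 6.05 and 6.53 on the PDPN+BP3- arrays and 2.64, 2.40 and 2.46 on the PDPN- arrays (3.65 ± 0.21). The natriuretic peptide receptors were opposed too. The guanylate cyclase receptors Npr2 (4.36 ± 0.13) and Npr1 (1.86 ± 0.19) were higher and the clearance receptor Npr3 was lower (-1.07 ± 0.21) in PDPN+BP3- cells. The endothelin B receptor Ednrb (-4.91 ± 0.14) and the vasopressin receptor Avpr1a (-1.65 ± 0.21) were lower. Among prostanoid receptors Ptger3 (2.25 ± 0.14) and Ptger4 (1.83 ± 0.16), which bind prostaglandin E, were higher, and the prostacyclin receptor Ptgir was lower (-0.61 ± 0.16).

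Enzymes that make, read and break down cyclic nucleotides passed more often as lower than as higher in PDPN+BP3- cells (13 lower and 6 higher of 25, median -1.11). The subunits of the nitric oxide receptor were lower together: Gucy1a1 was at 6.06, 6.11 and 6.17 on the PDPN+BP3- arrays and 10.10, 9.97 and 9.82 on the PDPN- arrays (-3.85 ± 0.14), and Gucy1b1 (-3.43 ± 0.22) and Gucy1a2 (-2.53 ± 0.14) differed the same way. The cGMP-dependent kinase Prkg1 (-2.50 ± 0.17), its substrate at the calcium store, listed as Mrvi1 (-2.30 ± 0.20), and the cGMP phosphodiesterase Pde5a (-2.95 ± 0.20) were lower as well. The members that were higher included the cAMP phosphodiesterase Pde7b (2.86 ± 0.13) and the adenylyl cyclase Adcy7 (2.50 ± 0.22).

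Of 19 RGS genes 6 were lower and 2 higher, with a median of -0.13. Rgs6 (-3.10 ± 0.21), Rgs7bp, which anchors RGS proteins at the membrane (-1.70 ± 0.12), and Rgs16 (-1.05 ± 0.14) were lower, and Rgs17 (1.71 ± 0.15) and Rgs19 (0.65 ± 0.13) were higher. Rgs9 (-0.41 ± 0.15) was the sixth lower gene and did not pass in any of the 6 fits without 1 array.

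In the Notch pathway PDPN+BP3- cells had lower signals for 9 of 20 genes and higher signals for 0 (median -0.26). By role, the receptors Notch3 (-3.46 ± 0.19), which mural cells use, and Notch1 (-1.67 ± 0.23) were lower, as was the ligand Jag1, at 5.96, 6.23 and 5.99 on the PDPN+BP3- arrays and 8.36, 8.28 and 8.19 on the PDPN- arrays (-2.22 ± 0.12). The targets Nrarp (-5.20 ± 0.12), Hey2 (-3.51 ± 0.20), Heyl (-2.82 ± 0.16), Hey1 (-2.10 ± 0.12) and Hes1 (-1.39 ± 0.19) were lower too, and so was the non-canonical ligand Dlk1 (-2.10 ± 0.27). Notch2 did not pass (0.32 ± 0.17), nor did Dll1 (0.27 ± 0.20). Rbpj, the DNA-binding partner of all Notch receptors, differed by 0.24 ± 0.14, did not pass, and passed under 4 of 14 alternatives, among them the fit without PDPN+BP3- replicate 1 (0.39).

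The promoter windows were also searched for GTGGGAA and its reverse complement TTCCCAC, the core letters that RBPJ binds. Of the 16 Notch genes with a window 3 held it (18.8%), against 7.11% of the tested genes with a window, 8.1% of those higher and 6.82% of those lower in PDPN+BP3- cells. The window of Hey2 is shown because it holds both orientations, in capitals, starting 207 and 4 bases before the start site. It lies at chr10:30842734-30843033 on the minus strand of GRCm38.p6.
Hey2: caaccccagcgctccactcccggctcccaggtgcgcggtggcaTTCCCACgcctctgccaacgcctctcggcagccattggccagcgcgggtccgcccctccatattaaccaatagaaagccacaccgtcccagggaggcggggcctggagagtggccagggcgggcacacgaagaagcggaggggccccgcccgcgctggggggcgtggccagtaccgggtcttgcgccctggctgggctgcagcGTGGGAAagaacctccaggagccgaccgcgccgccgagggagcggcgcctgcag

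**Figure D2:**
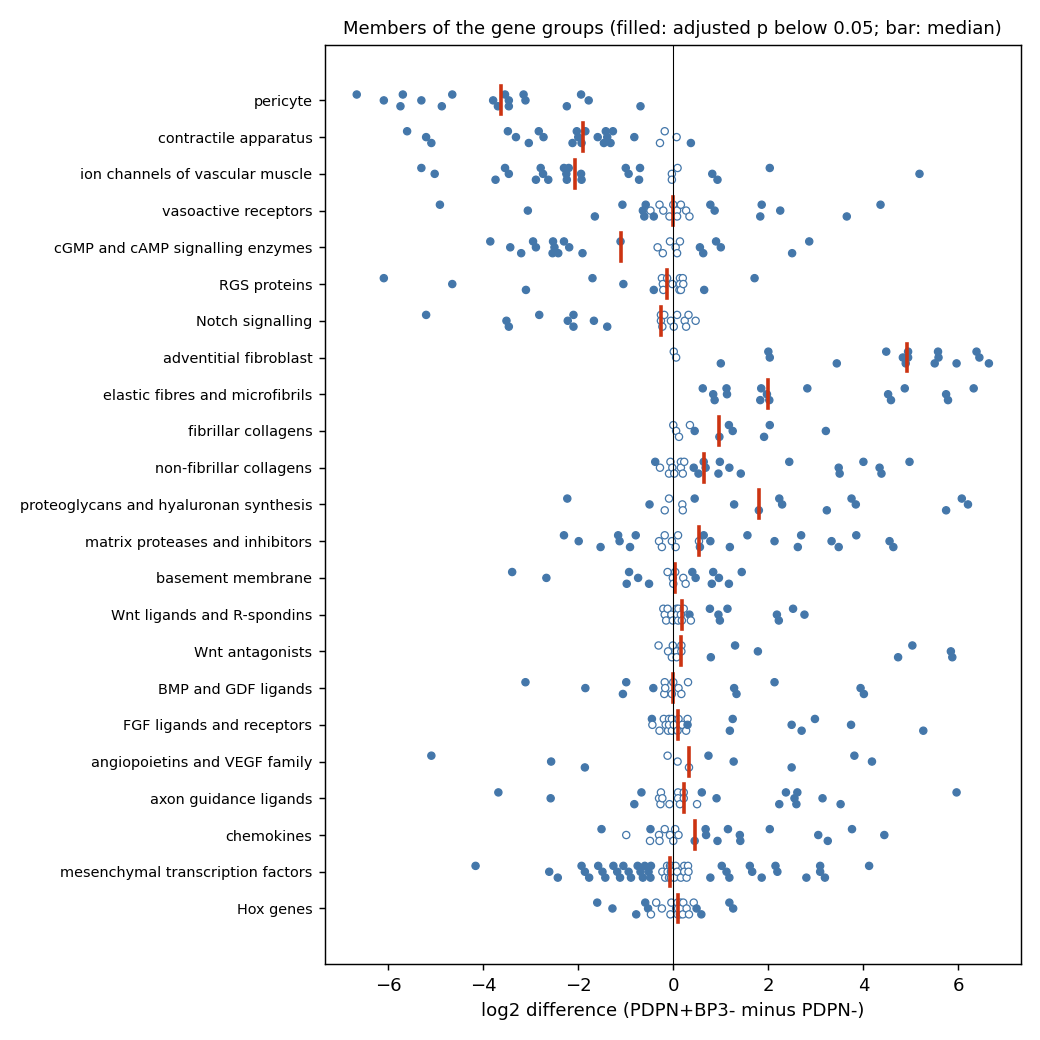
Log2 difference (PDPN+BP3- minus PDPN-) of every measured member of the perivascular, matrix and signalling gene groups, 1 point per gene and 1 row per group; filled points passed an adjusted p of 0.05, open points did not, and the short bar is the group median. The pericyte points all lie below 0, the elastic fibre points all lie above 0, and most signalling families spread to both sides.

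On the fibroblast side, most listed genes of adventitial fibroblasts, of fibrillar collagens and of elastic fibres were higher in PDPN+BP3- cells. Of 18 adventitial genes 16 were higher and none lower (median 4.92). Besides Pi16 and Pdgfra these included dermatopontin, Dpt (5.58 ± 0.27), the dipeptidase Dpp4 (4.94 ± 0.23), the complement regulator Cd55 (4.94 ± 0.24), the amidotransferase Gfpt2 (4.89 ± 0.20) and the ferritin receptor Scara5 (4.48 ± 0.27). The 2 that did not pass were Cd248, at 9.28, 9.68 and 9.80 on the PDPN+BP3- arrays and 9.53, 9.64 and 9.41 on the PDPN- arrays, and Thy1, at 10.92, 10.97 and 10.96 on the PDPN+BP3- arrays and 10.96, 10.97 and 10.90 on the PDPN- arrays. Their arrays overlapped, and both genes had strong signals in either population.

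Elastic fibre and microfibril genes were all higher: 16 of 16 passed (median 1.99). Mfap5, a microfibril glycoprotein, was at 11.07, 11.42 and 11.40 on the PDPN+BP3- arrays and 5.87, 5.58 and 5.22 on the PDPN- arrays (5.74 ± 0.20). The fibulins Efemp1 (6.32 ± 0.22), Fbln2 (5.78 ± 0.16), Fbln5 (4.87 ± 0.19) and Fbln1 (4.52 ± 0.15) and the emilin Emilin2 (4.58 ± 0.16) were other members with large differences. Elastin itself, Eln (1.12 ± 0.14), the fibrillin Fbn2 (2.02 ± 0.14) and the latent TGF-β binding proteins Ltbp1 (1.97 ± 0.19), Ltbp3 (0.87 ± 0.15) and Ltbp4 (0.84 ± 0.14) were higher by smaller amounts.

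Of 11 fibrillar collagen chains 7 were higher and none lower (median 0.97). The type I chain Col1a1 was at 9.51, 9.67 and 9.92 on the PDPN+BP3- arrays and 6.40, 6.60 and 6.48 on the PDPN- arrays (3.21 ± 0.13), and Col1a2 (1.91 ± 0.11) and Col3a1 (2.03 ± 0.13) were higher by less. Of 25 other chains 15 were higher (median 0.64). Collagen VI was uneven among its chains: Col6a6 (4.97 ± 0.19) and Col6a5 (4.0 ± 0.19) exceeded Col6a1 (0.95 ± 0.10), Col6a2 (1.18 ± 0.15) and Col6a3 (0.64 ± 0.13), each of which passed. Col6a5 was at 8.84, 8.88 and 8.32 on the PDPN+BP3- arrays and 4.99, 4.48 and 4.56 on the PDPN- arrays and Col6a3, strong in both populations, at 10.07, 10.20 and 9.96 on the PDPN+BP3- arrays and 9.50, 9.33 and 9.49 on the PDPN- arrays. Col8a1 (4.38 ± 0.20), Col14a1 (4.34 ± 0.15), Col12a1 (3.50 ± 0.16) and Col15a1 (3.48 ± 0.16) were other large differences. The only lower chain, Col25a1 (-0.38 ± 0.12), did not pass without PDPN+BP3- replicate 1 or 2, without PDPN- replicate 1 or 3, after cyclic loess or on the thymus arrays alone.

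Collagen processing and cross-linking enzymes were higher in 16 of 17 cases (median 1.12). The procollagen peptidase enhancer Pcolce2 was at 7.55, 8.05 and 8.07 on the PDPN+BP3- arrays and 2.61, 2.60 and 2.62 on the PDPN- arrays (5.28 ± 0.32), and the lysyl oxidases Loxl1 (4.25 ± 0.16), Lox (2.91 ± 0.19) and Loxl4 (2.37 ± 0.29) were higher. The exception was the prolyl 3-hydroxylase P3h2, an enzyme that acts on basement membrane collagen, which was lower (-2.57 ± 0.18), while its relatives P3h1 (1.12 ± 0.16) and P3h3 (0.59 ± 0.15) were higher. Of 17 proteoglycan and hyaluronan genes 11 were higher and 2 lower (median 1.80). The small leucine-rich proteoglycans ranged from osteoglycin, Ogn (5.74 ± 0.16), and decorin, Dcn (3.84 ± 0.15), through biglycan, Bgn (0.45 ± 0.11), to asporin, Aspn (-0.50 ± 0.13), and fibromodulin, Fmod (-2.23 ± 0.18). Fmod was at 5.27, 5.38 and 5.50 on the PDPN+BP3- arrays and 7.67, 7.69 and 7.47 on the PDPN- arrays, with no overlap. The hyaluronan synthases Has1 (2.29 ± 0.16) and Has2 (1.28 ± 0.26) were higher.

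Matrix proteases and their inhibitors were found on either side. Of 27 proteases and inhibitors 13 were higher and 7 lower (median 0.54). The metalloproteinases Mmp19 (4.63 ± 0.14), Mmp9 (4.55 ± 0.22), Mmp3 (3.85 ± 0.28), Mmp23 (3.33 ± 0.12), Mmp2 (2.69 ± 0.25), Mmp16 (2.62 ± 0.17) and Mmp14 (1.19 ± 0.09) were higher, and none of the MMP genes measured passed as lower. Among ADAMTS proteases Adamts5 (3.48 ± 0.19), Adamts10 (0.78 ± 0.16) and Adamts6 (0.56 ± 0.13) were higher whereas Adamts4 (-2.30 ± 0.20), Adamts17 (-1.99 ± 0.24), Adamts1 (-1.16 ± 0.16) and Adamts9 (-0.91 ± 0.16) were lower. The tissue inhibitors were opposed as well, with Timp1 (2.13 ± 0.16) and Timp2 (1.56 ± 0.12) higher and Timp3 (-1.53 ± 0.17) and Timp4 (-1.13 ± 0.15) lower.

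Basement membrane genes differed in both directions, 7 higher and 6 lower of 19 (median 0.04). The laminin α chains separated the populations. Lama2 was at 9.58, 9.98 and 9.87 on the PDPN+BP3- arrays and 8.54, 8.16 and 8.40 on the PDPN- arrays (1.44 ± 0.16) and Lama5 at 3.73, 3.60 and 3.64 on the PDPN+BP3- arrays and 7.20, 7.0 and 6.94 on the PDPN- arrays (-3.39 ± 0.18), neither with overlap. Lamb1 was higher (0.84 ± 0.10) and Lamb2 lower (-0.74 ± 0.15). Agrin, Agrn (-2.67 ± 0.15), and the collagen IV chains Col4a1 (-0.93 ± 0.18) and Col4a2 (-0.98 ± 0.14) were lower in PDPN+BP3- cells, and perlecan, Hspg2 (1.17 ± 0.15), and nidogen, Nid1 (0.81 ± 0.10), were higher.

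Receptors for matrix and for neighbouring cells were likewise split. Of 20 integrin genes 8 were higher, among them the collagen receptor Itga11 (3.40 ± 0.20), Itga9 (2.37 ± 0.17) and the integrin-like Itgbl1 (3.44 ± 0.29). Another 7 were lower, among them Itga7 (-5.09 ± 0.15), the VCAM-1 receptor subunit Itga4 (-3.45 ± 0.12), Itga10 (-2.50 ± 0.13) and the collagen receptor Itga1 (-1.35 ± 0.15). Of 20 cadherins and leukocyte adhesion genes 5 were higher and 5 lower. Cadherin 11, Cdh11, was at 7.98, 8.68 and 8.65 on the PDPN+BP3- arrays and 4.45, 4.67 and 4.20 on the PDPN- arrays (4.0 ± 0.18), and N-cadherin, Cdh2, at 4.29, 4.48 and 4.70 on the PDPN+BP3- arrays and 8.02, 7.87 and 7.97 on the PDPN- arrays (-3.46 ± 0.12), each without overlap and in opposite directions. Cdh6 went with Cdh2 (-3.36 ± 0.16). The leukocyte ligands Vcam1 (2.15 ± 0.13) and E-selectin, Sele (4.01 ± 0.25), were higher.

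**Figure D3:**
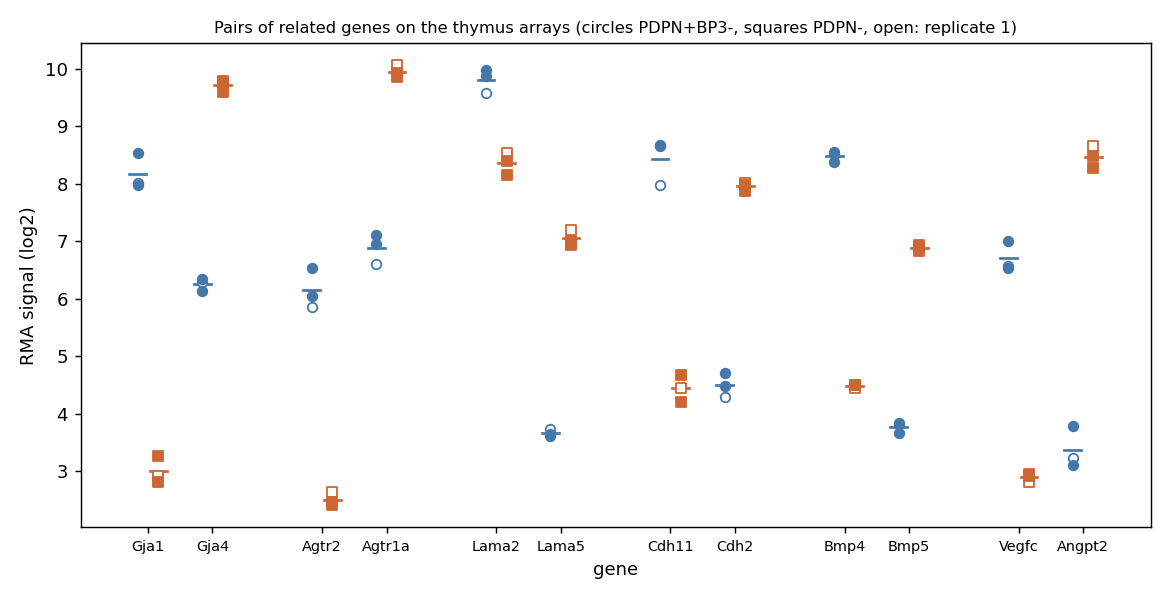
RMA signal (log2) on each of the 6 thymus arrays for 12 genes in pairs of related function; circles are PDPN+BP3- arrays and squares PDPN- arrays, open symbols mark replicate 1, and bars are means. In each pair the gene on the left is higher in PDPN+BP3- cells and the gene on the right is higher in PDPN- cells, with no overlap between the populations.

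Among secreted signals, most or all FGF, IGF and Wnt genes that passed were higher in PDPN+BP3- cells. Other families, such as the BMP and GDF ligands, were divided between the populations. Among FGF genes 8 of 24 were higher and 1 lower (median 0.10), against shares over all genes of 10.3% and 18.2%. Fgf10, a mitogen of thymic epithelium, was at 7.13, 7.35 and 7.33 on the PDPN+BP3- arrays and 1.90, 2.05 and 2.09 on the PDPN- arrays (5.26 ± 0.11). Fgf7, which signals through the same epithelial receptor, was at 5.92, 6.49 and 5.94 on the PDPN+BP3- arrays and 2.24, 2.40 and 2.48 on the PDPN- arrays (3.74 ± 0.25). Fgf2 (2.70 ± 0.27), Fgf18 (2.49 ± 0.25) and the receptor Fgfr1 (2.98 ± 0.13) were higher, and Fgf1 was lower (-0.45 ± 0.13), though not without PDPN- replicate 1 or after cyclic loess or quantile normalization. In the IGF system 7 of 10 genes were higher, including the ligands Igf1 (3.56 ± 0.17) and Igf2 (1.98 ± 0.17) and the binding proteins Igfbp3 (2.87 ± 0.16) and Igfbp4 (1.53 ± 0.20), and 0 were lower.

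BMP and GDF ligands were found on either side, 5 higher and 5 lower of 18 (median -0.02). Bmp4, which the thymic primordium uses, was at 8.52, 8.56 and 8.37 on the PDPN+BP3- arrays and 4.44, 4.49 and 4.49 on the PDPN- arrays (4.01 ± 0.22), and Bmp5 was at 3.84, 3.66 and 3.82 on the PDPN+BP3- arrays and 6.89, 6.94 and 6.83 on the PDPN- arrays (-3.11 ± 0.14). Gdf10 (3.94 ± 0.14) and Bmp7 (2.13 ± 0.21) went with Bmp4, whereas Gdf11 (-1.85 ± 0.14), Bmp2 (-1.06 ± 0.23) and Bmp6 (-0.99 ± 0.18) went with Bmp5. Of 8 antagonists 5 were higher, led by Bmper (2.05 ± 0.21) and Twsg1 (1.32 ± 0.16). In the TGF-β and activin group 7 of 14 genes were higher and 3 lower. The ligand Tgfb2 was higher (1.10 ± 0.15) and Tgfb1 lower (-0.62 ± 0.16), the latter not after cyclic loess, and the matrix target Tgfbi was at 5.47 ± 0.17.

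Of 23 Wnt ligands and R-spondins 9 were higher and 0 lower (median 0.18). They included the non-canonical ligand Wnt5a (2.76 ± 0.17), the canonical ligands Wnt2b (2.22 ± 0.20) and Wnt2 (2.18 ± 0.12), and Rspo3 (2.52 ± 0.17), which strengthens Wnt signals. Of 15 antagonists 7 were higher and 0 lower (median 0.17), so ligands and antagonists were higher in the same population. Sfrp2, a decoy for Wnt ligands, was at 9.04, 9.29 and 9.19 on the PDPN+BP3- arrays and 3.28, 3.28 and 3.35 on the PDPN- arrays, and Dkk3 (1.78 ± 0.12) and Frzb (1.30 ± 0.16) were smaller differences of the same sign. In the Hedgehog pathway the coreceptors Boc (2.01 ± 0.18) and Gas1 (1.25 ± 0.20) and the transducer Smo (0.49 ± 0.13) were higher and the receptor and target Ptch1 was lower (-1.06 ± 0.13), while Gli1, another target, did not pass (0.38 ± 0.17); 11 genes were measured. Smo did not pass without PDPN- replicate 1, and after cyclic loess 6 of the genes were higher.

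The vascular growth factors and the PDGF genes had members on either side. Angpt2, the angiopoietin that loosens vessels, was at 3.23, 3.78 and 3.11 on the PDPN+BP3- arrays and 8.65, 8.27 and 8.48 on the PDPN- arrays (-5.09 ± 0.17), and Angpt1, which stabilises them, was lower as well (-2.57 ± 0.16), as was the placental growth factor Pgf (-1.86 ± 0.21). Vegfc, the growth factor of lymphatic vessels, was at 6.57, 7.0 and 6.53 on the PDPN+BP3- arrays and 2.81, 2.91 and 2.94 on the PDPN- arrays (3.81 ± 0.15), and Vegfd (2.49 ± 0.16), Vegfa (1.27 ± 0.13) and Angptl1 (4.18 ± 0.26) were higher too. In all, 5 of 11 genes of this group were higher and 3 lower. Pdgfa, the ligand of the fibroblast receptor Pdgfra, was higher in the PDPN- cells, where the signal of that receptor lay below 3.8, at 4.53, 5.27 and 5.06 on the PDPN+BP3- arrays and 7.87, 7.91 and 7.83 on the PDPN- arrays (-2.92 ± 0.17). Pdgfb went with Pdgfa (-1.43 ± 0.18), and Pdgfd was higher in PDPN+BP3- cells (2.52 ± 0.23). Counting the receptors, 2 of 7 PDGF genes were higher and 3 lower.

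Of 25 axon guidance ligands 10 were higher and 4 lower in PDPN+BP3- cells (median 0.22). The class 3 semaphorins Sema3c (5.96 ± 0.20), Sema3d (3.52 ± 0.26) and Sema3a (3.14 ± 0.19), the repellents Slit2 (2.37 ± 0.27) and Slit3 (2.59 ± 0.14) and netrin 1, Ntn1 (2.23 ± 0.14), were higher. The membrane semaphorins Sema5b (-3.68 ± 0.18), Sema6d (-2.58 ± 0.16) and Sema5a (-0.82 ± 0.13) were lower. Netrin 4, Ntn4, was lower in the full fit (-0.67 ± 0.21) but not without PDPN+BP3- replicate 1 (-0.66) or 3, without PDPN- replicate 1 or after either normalization.

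Among chemokines and cytokines that act on lymphocytes and their precursors, most genes that passed were higher in PDPN+BP3- cells. Of 23 chemokine genes 12 were higher and 2 lower (median 0.45), against 10.3% higher and 18.2% lower over all genes. Cxcl12, the attractant of progenitors and early thymocytes, was at 6.92, 7.60 and 7.40 on the PDPN+BP3- arrays and 8.93, 8.87 and 8.66 on the PDPN- arrays (-1.51 ± 0.14), lower without overlap in PDPN+BP3- cells. Cxcl10 was the other lower gene (-0.48 ± 0.16) and did not pass under 8 of 14 alternatives, among them the fit without PDPN+BP3- replicate 1. Ccl19, a ligand of CCR7, was higher (0.93 ± 0.12), as was Ackr3, the scavenger receptor of Cxcl12 (1.15 ± 0.23). Ccl25, the thymic ligand of CCR9, did not pass (-0.99 ± 0.40). Of 20 cytokine genes 8 were higher, among them the interleukin Il15 (1.21 ± 0.16), Flt3l (1.60 ± 0.12), the leukaemia inhibitory factor Lif (2.22 ± 0.27) and Csf1 (1.05 ± 0.11). Between 1 and 3 cytokine genes were lower when any 1 thymus array was left out. Kitl, stem cell factor, was lower at 5.50, 5.87 and 5.98 on the PDPN+BP3- arrays and 7.75, 7.29 and 7.26 on the PDPN- arrays (-1.65 ± 0.15). Il6 was lower too (-1.10 ± 0.31) but not without PDPN+BP3- replicate 1 (-0.80) or PDPN- replicate 3, and Il7 was near the bottom of the scale in both populations (0.14 ± 0.17).

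Retinoid, lipid and complement genes gave further contrasts. The retinaldehyde dehydrogenases that make retinoic acid, Aldh1a1 (3.77 ± 0.24), Aldh1a3 (2.27 ± 0.17) and Aldh1a2 (1.17 ± 0.18), and the retinol dehydrogenase Rdh10 (1.91 ± 0.13) were higher, while Rdh5 was lower, at 3.73, 4.30 and 4.66 on the PDPN+BP3- arrays and 7.80, 8.04 and 7.80 on the PDPN- arrays (-3.65 ± 0.23). In all 7 of 14 retinoid genes were higher and 1 lower. Among 19 genes of prostanoid synthesis and lipid handling 9 were higher and 6 lower. Among the higher members were the phospholipase Pla2g4a (3.99 ± 0.18), the cyclooxygenase Ptgs2 (3.0 ± 0.21) and the synthases Ptgis (4.84 ± 0.20) and Ptges (1.28 ± 0.17). The nuclear receptor Pparg was lower at 2.93, 3.27 and 3.28 on the PDPN+BP3- arrays and 7.13, 6.83 and 6.58 on the PDPN- arrays (-3.69 ± 0.15), and so were the fatty acid carriers Fabp4 (-3.92 ± 0.25) and Fabp7 (-2.46 ± 0.15) and the fatty acid transporter Cd36 (-3.60 ± 0.30). The adipocyte genes Adipoq and Lep had means of 2.15 to 2.38 in both populations and did not pass. Of 13 complement genes 6 were higher and 1 lower. The protease Masp1 (4.75 ± 0.11) and factor B, Cfb (3.34 ± 0.14), were among the higher genes. The lower gene, properdin, Cfp (-0.56 ± 0.19), did not pass under 7 of 14 alternatives, among them the fit without PDPN+BP3- replicate 1 (-0.37), and between 4 and 6 genes were higher when 1 array was left out.

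Among 55 transcription factors of mesenchyme 14 were higher and 22 lower (median -0.07). Higher in PDPN+BP3- cells were the homeobox genes Meox1, at 7.17, 7.28 and 7.41 on the PDPN+BP3- arrays and 3.20, 2.88 and 3.43 on the PDPN- arrays (4.12 ± 0.18), Prrx2 (3.19 ± 0.24) and Lhx8 (1.66 ± 0.14), the zinc finger factors Osr1 (2.80 ± 0.19), Osr2 (1.86 ± 0.17), Klf4 (2.19 ± 0.13) and Wt1 (3.09 ± 0.13), and the GATA factor Gata6 (2.15 ± 0.20). Mef2c, a partner of myocardin in muscle genes, was lower at 3.92, 4.72 and 4.45 on the PDPN+BP3- arrays and 8.62, 8.49 and 8.45 on the PDPN- arrays (-4.16 ± 0.17). The T-box genes Tbx3 (-2.61 ± 0.13) and Tbx2 (-1.93 ± 0.22), the forkhead genes Foxs1 (-1.77 ± 0.13), Foxc1 (-1.49 ± 0.25) and Foxf1 (-1.43 ± 0.20), the nuclear receptors Nr2f1 (-1.86 ± 0.14) and Nr2f2 (-1.58 ± 0.17), and Ebf1 (-1.26 ± 0.12) and Dlx5 (-2.43 ± 0.16) were lower. Relatives stood on opposite sides, such as Prrx2 higher and Prrx1 lower (-0.48 ± 0.13), and Meox1 higher and Meox2 lower (-0.75 ± 0.14). Prrx1 did not pass after cyclic loess.

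Hox and cofactor genes passed in 4 cases higher and 5 lower of 26, and 9 were higher after cyclic loess. As deposited, the higher and lower calls made up 15.4% and 19.2% of the members, against 10.3% and 18.2% of all genes. The members that were lower in PDPN+BP3- cells were Hoxa2, at 4.50, 5.41 and 5.27 on the PDPN+BP3- arrays and 6.61, 6.77 and 6.59 on the PDPN- arrays (-1.60 ± 0.21), Hoxb2 (-1.28 ± 0.28), Hoxb3 (-0.78 ± 0.17), Hoxa4 (-0.59 ± 0.16) and Hoxb4 (-0.53 ± 0.12). Those that were higher were Hoxa5 (1.26 ± 0.24), Hoxd3 (1.18 ± 0.17), Hoxc6 (0.59 ± 0.19) and Hoxb6 (0.49 ± 0.13). The signals of Hoxc6 and Hoxb6 lay below 3.8 on every thymus array. Hoxc6 did not pass without PDPN+BP3- replicate 2 or 3 or PDPN- replicate 1 or 3, and Hoxa4 did not pass after cyclic loess or quantile normalization.

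Of group members not yet described, Sfrp4 (5.84 ± 0.19), the alarmin Il33 (5.57 ± 0.12) and the binding protein Igfbp6 (5.50 ± 0.16) were higher and the ADP-ribosyltransferase Art3 lower (-4.87 ± 0.15). Among the 25 largest differences in either direction, several genes belong to none of the groups above. Higher in PDPN+BP3- cells were the lipopolysaccharide-binding protein Lbp (5.67 ± 0.23), the adhesion protein Svep1 (5.48 ± 0.20), the protease Htra3 (5.36 ± 0.15), the dipeptidase Dpep1 (5.39 ± 0.25), Medag (5.34 ± 0.15), and Fndc1 (6.37 ± 0.19) and Flrt2 (5.93 ± 0.21). Lower were the adhesion receptor Adgrf5 (-5.08 ± 0.12), the secreted protein Lgi1 (-4.96 ± 0.15), the carboxypeptidase Cpm (-4.87 ± 0.18), the lipid phosphatase Inpp4b (-4.78 ± 0.13), the matrix protein Tinagl1 (-4.60 ± 0.12), and Shisa6 (-4.87 ± 0.23), Nrip2 (-4.90 ± 0.16), Stac (-4.93 ± 0.13) and Map3k7cl (-4.95 ± 0.13). Lgi1 was at 1.75, 1.74 and 1.68 on the PDPN+BP3- arrays and 6.74, 6.76 and 6.56 on the PDPN- arrays, near the bottom of the scale in PDPN+BP3- cells.

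Class I antigen presentation and interferon genes passed more often as higher than as lower. Over all genes 10.3% were higher and 18.2% lower. Of 12 class I genes 4 were higher, among them Tapbp (0.89 ± 0.18) and H2-T23 (0.83 ± 0.15), and B2m did not pass (0.10 ± 0.10). Nlrc5, the only lower gene (-0.53 ± 0.19), lost its call under most settings, including the fit without PDPN+BP3- replicate 1. Of 18 interferon genes 4 were higher, among them Oas2 (1.42 ± 0.23) and Oas1a (1.20 ± 0.31), and 1, the factor Irf1, was lower (-0.92 ± 0.18). After cyclic loess 8 were higher.

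Some cell cycle, immediate early, haematopoietic and epithelial genes had lower signals in PDPN+BP3- cells. Their counts changed with the arrays fitted. Of 19 cell cycle genes 8 were lower, and 5 without that array, among them Bub1 (-1.31 ± 0.20), Cenpe (-1.03 ± 0.20) and Tpx2 (-0.93 ± 0.14). Of 14 immediate early and stress genes 6 were lower, and 2 to 7 when any 1 thymus array was left out; Nr4a1 (-1.87 ± 0.23), the orphan receptor induced by acute stimuli, and Fosl2 (-0.88 ± 0.19) passed without replicate 1. The T lineage genes averaged 3.21 on PDPN+BP3- replicate 1, 4.43 and 4.53 on the other PDPN+BP3- arrays and 4.55 to 5.03 on the PDPN- arrays. Of 11 measured, 4 were lower in the full fit, 2 without replicate 1 and 1 to 6 when any 1 thymus array was left out, the fewest without PDPN- replicate 3. Thymic epithelial genes averaged 3.32 on replicate 1 and 3.93 to 4.41 on the other thymus arrays, an average that mixes strong members with members below 3.8. In the full fit 5 of 14 were lower and 1 without replicate 1, and 1 to 9 over all fits that left out 1 thymus array. Class II genes averaged 4.4 on replicate 1 and 5.02 to 6.09 on the others, with 4 of 7 lower and 2 without it. The genes whose difference moved most when replicate 1 was left out included the T cell receptor components Cd3d (-1.21 with and -0.46 without it) and Cd3g (-0.84 and -0.24) and the Y-linked Zfy2 (0.82 and -0.09), which stood at 5.09, 2.11 and 2.60 on the PDPN+BP3- arrays and 2.46, 2.37 and 2.51 on the PDPN- arrays. The part of these transcripts in the differences above was not tested.

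Markers of other cell types that a sort could hold were also counted. B cell genes did not pass in any of 5 cases, nor did the 4 glial or 2 red cell genes. Of 10 myeloid genes 1, Cd68 (-1.71 ± 0.26), passed. Of 12 endothelial genes 4 were higher, among them the angiopoietin receptor Tek (2.60 ± 0.19), and 1, endomucin, Emcn, was lower at 4.22, 4.55 and 4.76 on the PDPN+BP3- arrays and 7.82, 7.64 and 7.71 on the PDPN- arrays (-3.21 ± 0.21). The defining endothelial genes Pecam1, at 3.21, 3.54 and 3.46 on the PDPN+BP3- arrays and 3.36, 3.0 and 3.61 on the PDPN- arrays, and Cdh5, at 2.78, 2.87 and 2.87 on the PDPN+BP3- arrays and 2.62, 2.98 and 2.83 on the PDPN- arrays, lay below 3.8 on every thymus array. Of 6 mesothelial genes 4 were higher, among them Wt1 and Upk3b (1.05 ± 0.15), while mesothelin, Msln, was at 2.40, 2.97 and 2.83 on the PDPN+BP3- arrays and 2.76, 2.98 and 2.44 on the PDPN- arrays. The other higher genes, Krt19 and Lrrn4, lay below 3.8 on every thymus array, and Krt19 passed under only 6 of 13 alternatives. Upk3b averaged 3.7 in PDPN+BP3- and 2.65 in PDPN- cells. Of 7 adipocyte genes 3 were lower, namely Pparg, Fabp4 and Plin1 (-0.37 ± 0.13), the last of which did not pass under 5 of 13 alternatives. Of 4 genes of the parathyroid and thyroid 1, the thyrotropin receptor Tshr (0.62 ± 0.13), passed. The female X inactivation RNA Xist stood at 7.40, 6.58 and 5.62 on the PDPN+BP3- arrays and 7.92, 5.66 and 5.71 on the PDPN- arrays and the Y-linked Eif2s3y at 4.50, 6.06 and 6.0 on the PDPN+BP3- arrays and 5.62, 6.19 and 6.33 on the PDPN- arrays. Eif2s3y was chosen after its values were seen, and the labels used here give no sex of the pooled mice.

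**Figure D4:**
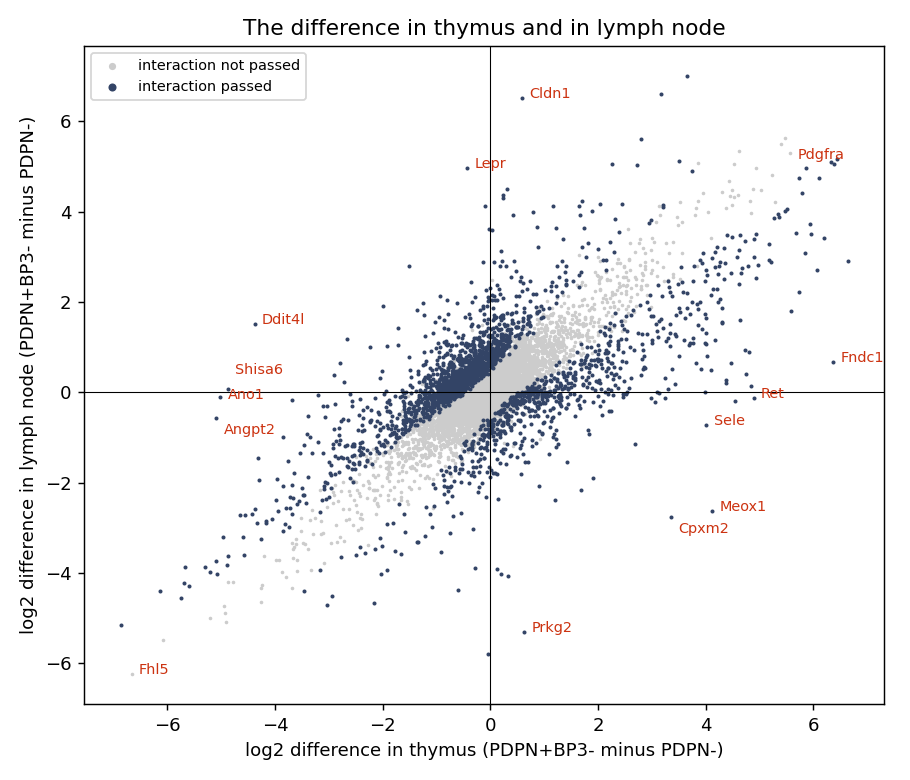
Log2 difference (PDPN+BP3- minus PDPN-) of every gene tested in thymus on the x axis and in lymph node on the y axis, from arrays that the tissues do not share. Dark points passed the interaction at an adjusted p of 0.05. The named points are Fhl5, Pdgfra and the 6 largest interactions of each sign among genes whose thymus arrays do not overlap. Fhl5 and Pdgfra have the same sign in both tissues, while Meox1, Cpxm2 and Prkg2 lie below the horizontal line at 0 on its right side.

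The thymus difference was set against the same difference in lymph node to find where the contrasts differ, with a test of the interaction. In lymph node the endothelial gene Cdh5 averaged 5.36 in PDPN+BP3- and 3.21 in PDPN- cells, and Pecam1 5.36 and 4.32. Emcn hardly differed there (4.99 and 5.04). The part of other cell types in the interactions was not tested. The contrast differed between the tissues for 2381 genes, 12.7% of those tested. Of the 18 pericyte genes 13 passed the interaction, with a median difference of -3.62 in thymus and -3.32 in lymph node. For adventitial genes these were 11 of 18, 4.92 and 2.95. For elastic fibre genes they were 10 of 16, 1.99 and 1.42, and for vascular muscle channels 16 of 26, -2.07 and -0.83. Of 19 cell cycle genes 0 passed it.

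Among genes whose thymus arrays did not overlap, 6 genes led the interaction in each direction, given as thymus difference minus lymph node difference. Meox1 was higher in thymus PDPN+BP3- cells (4.12) and lower in those of lymph node (-2.62), an interaction of 6.74 ± 0.26. The carboxypeptidase-like Cpxm2 was at 7.23, 7.57 and 7.95 on the PDPN+BP3- arrays and 4.55, 3.88 and 4.26 on the PDPN- arrays in thymus (3.35) and differed by -2.75 in lymph node (6.11 ± 0.33). The kinase Prkg2 differed by 0.63 in thymus, a call that did not hold without PDPN+BP3- replicate 2, without PDPN- replicate 3 or on the thymus arrays alone, and by -5.30 in lymph node (5.93 ± 0.25). For Fndc1 (5.69 ± 0.27), for the GDNF family receptor Ret (5.02 ± 0.20) and for Sele (4.73 ± 0.36) the difference was large in thymus and 0.68, -0.13 and -0.71 in lymph node. Ret was at 7.24, 7.55 and 7.39 on the PDPN+BP3- arrays and 2.46, 2.50 and 2.55 on the PDPN- arrays.

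In the other direction the tight-junction claudin Cldn1 differed by 0.58 in thymus and 6.51 in lymph node (-5.93 ± 0.25), a thymus call that did not hold without PDPN+BP3- replicate 2 or 3 or PDPN- replicate 2 or 3. The leptin receptor Lepr differed by -0.43 in thymus, which did not pass, and by 4.98 in lymph node (-5.41 ± 0.26). Ddit4l, an inhibitor of mTOR signalling, was at 3.45, 2.86 and 3.0 on the PDPN+BP3- arrays and 7.74, 7.45 and 7.25 on the PDPN- arrays in thymus and differed by -4.38 there and 1.52 in lymph node (-5.90 ± 0.38). Shisa6 (-4.94 ± 0.32), Ano1 (-4.93 ± 0.26) and Angpt2 (-4.52 ± 0.25) were lower in thymus PDPN+BP3- cells and differed by 0.08, -0.10 and -0.57 in lymph node. Cxcl12 was lower in thymus (-1.51) and higher in lymph node (2.81), an interaction of -4.32 ± 0.20. In all 187 genes, 0.999% of those tested, passed in both tissues with opposite signs and passed the interaction, 54 of them (0.288%) higher and 133 (0.711%) lower in thymus PDPN+BP3- cells.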

How the data were processed

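Total RNA of 15 sorted pools was hybridised to Affymetrix Mouse Gene 1.1 ST arrays, per the labels' protocols. The deposited values are RMA signals made by the authors with Affymetrix Expression Console, per the submitters' processing notes. Their log2 scale was inferred from the deposited values, which run from 1.07 to 12.07. Of 24758 transcript clusters 20844 had 1 gene symbol, and the cluster with the highest mean over the arrays stood for each of 18718 genes. All 15 arrays were fitted with limma 3.58.1 in R 4.3.3, with a mean per population, moderated variances and Benjamini-Hochberg adjustment. In simulated data for this comparison 200 of 18718 genes were changed. There 90% of changes of 1 and 100% of changes of 2 on the log2 scale were recovered, with 5 false calls. Many more genes passed in the real comparison, so these figures need not hold for it. The number of arrays limits the precision, and p-values measure the spread between pools.

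Genes were named as sort antigens and markers, the 25 largest differences of each sign that passed with and without PDPN+BP3- replicate 1, members of fixed lists, the 6 largest interactions of each sign, and the 5 genes of each sign that moved most without that array. The members and the lists were chosen with earlier results of these data known. Alternatives changed the arrays fitted, the normalization, the variance prior, array weights, a replicate block, a filter on low values and the choice of cluster.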

Additional observations from a re-analysis of the deposited data

Results flagged for a closer look

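The difference between the thymus populations was tested against the same difference in lymph node, and 2381 genes had an interaction past the threshold. The interactions of Meox1 (6.74), Cpxm2 (6.11), Prkg2 (5.93), Fndc1 (5.69), Ret (5.02) and Sele (4.73) were the largest with a higher value in thymus, among genes whose thymus arrays did not overlap. Those of Cldn1 (-5.93), Ddit4l (-5.90), Lepr (-5.41), Shisa6 (-4.94), Ano1 (-4.93) and Angpt2 (-4.52) were the largest in the other direction. All 12 values are thymus minus lymph node on the log2 scale, from limma, and the PDPN- cells of both tissues were labelled as Ly51+. What sets these differences was not tested.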

How the results depend on the processing

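Of the 323 genes named, 303 passed, and 284 of these passed under every alternative that tested them, which were 14 for 295 genes and 13 for the 8 genes that the filter on low values dropped. The count of genes lower in PDPN+BP3- cells moved from 3415 to 2211 after cyclic loess, where 2698 were higher, so the share of lower calls was 64% as deposited, 45% after cyclic loess, 55% after quantile normalization and 52.5% without PDPN+BP3- replicate 1. The cause was not tested. The median difference of all genes was -0.22 among the 10495 genes kept by the filter on low values and 0.0 after cyclic loess. When any 1 thymus array was left out, 4324 to 5409 genes passed the thymus comparison and 1752 to 2676 the interaction. With only the thymus arrays in the fit 4393 genes passed, 1679 higher and 2714 lower, against 5337 with all arrays. Signs turned only for named genes that did not pass, all values being log2 differences. After quantile normalization Bst1 was at -0.00 and Msln at -0.04. Without 1 array, Bst1 ran from -0.02 to 0.14, Cd248 from -0.05 to 0.21, Cdh5 from -0.06 to 0.12, Msln from -0.14 to 0.17, Pecam1 from -0.08 to 0.22, Thy1 from -0.01 to 0.02, Xist from -0.33 to 0.85 and Zfy2 from -0.09 to 1.40.

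Replicate numbers are shared by the populations. Deviations from the group means correlated at -0.161, -0.174 and -0.142 between arrays of the same number. Between arrays of different number they correlated at -0.002 to 0.171. The same-number values were the lowest, so no positive correlation tied to the number showed. Whether arrays of the same number came from the same mice cannot be told from these correlations. With the replicate number as a block 5313 genes passed, 1905 higher and 3408 lower, and 2357 passed the interaction.

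Array values carry no read depth. Signals below the middle of the table, 3.8, cannot be told from background here, since the deposited values hold no background measure.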
